A study of Homo sapiens with 6 samples.

Results

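RAB17 and 9 endosomal relatives were followed across 6 RNA-seq libraries of HEK293, a human embryonic kidney cell line. The 10 genes, of 57773 in the count table, were RAB17, its RAB5-like relatives RAB5A, RAB5B, RAB5C, RAB20, RAB21 and RAB22A, and the RAB11-like genes RAB11A, RAB11B and RAB25. RAB17 was chosen because its counts were far higher after disruption of ZNF507 than in control cells, and the other genes were listed as its relatives. The values of RAB17 in comparisons with the sgZNF507 libraries are therefore given as a description, with no test.

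The study asked whether 2 zinc finger proteins that bind LINE-1 repeats, ZNF146 and ZNF507, affect RNA levels. HEK293 cells received plasmids for Cas9 and a guide RNA, as a set of 4 guides against ZNF146 (sgZNF146) or 4 against ZNF507 (sgZNF507), or the empty vector without a guide (EV). All 3 groups were selected with puromycin for 36 h and grown out for 2 weeks after transfection. No cloning step is stated, so each group was a transfected population, and it was sequenced as a biological duplicate after depletion of ribosomal RNA.

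RAB proteins are small GTPases that switch between a GTP-bound form on membranes and a GDP-bound form held in the cytosol, and each marks particular compartments. RAB5 isoforms drive fusion of early endosomes, whereas RAB11 isoforms return cargo such as the transferrin receptor from recycling endosomes to the cell surface. RAB17 is best known from polarized epithelia, where it acts in transcytosis and recycling, and RAB25 is likewise an epithelial gene.

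The sequences just upstream of the gene starts are shown for RAB17 and RAB25, the 2 lowest genes of the set, and for RAB5C. The starts of RAB17 and RAB25 have fewer CpG dinucleotides than those of the other matched genes. Each is the 250 bases before the RefSeq start on GRCh38.p14, and capitals mark CAGGTG or its reverse complement CACCTG, a form of the E-box bound by basic helix-loop-helix and zinc finger repressors of epithelial genes. RAB17 lies at chr2:237590735-237590984 on the minus strand, RAB25 at chr1:156060910-156061159 on the plus strand and RAB5C, a highly expressed relative, at chr17:42154990-42155239 on the minus strand.
RAB17: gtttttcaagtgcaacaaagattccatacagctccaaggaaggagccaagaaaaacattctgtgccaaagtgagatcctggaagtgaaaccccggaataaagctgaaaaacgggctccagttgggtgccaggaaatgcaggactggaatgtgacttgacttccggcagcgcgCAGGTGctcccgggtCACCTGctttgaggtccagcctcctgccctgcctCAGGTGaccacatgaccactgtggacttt
RAB25: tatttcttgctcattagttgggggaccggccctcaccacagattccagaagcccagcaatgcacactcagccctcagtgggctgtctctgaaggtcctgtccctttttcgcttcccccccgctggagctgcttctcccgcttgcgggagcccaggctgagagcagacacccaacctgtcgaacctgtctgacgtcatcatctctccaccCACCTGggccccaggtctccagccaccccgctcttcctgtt
RAB5C: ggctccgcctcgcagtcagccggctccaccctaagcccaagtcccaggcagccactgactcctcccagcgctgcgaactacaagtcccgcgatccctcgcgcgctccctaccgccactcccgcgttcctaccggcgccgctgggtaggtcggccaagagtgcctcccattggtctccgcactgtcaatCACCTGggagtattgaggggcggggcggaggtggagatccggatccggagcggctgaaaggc
The RAB17 window held 6 CpG dinucleotides and the RAB25 window 8, against a median of 11 over 35116 RefSeq promoter windows of the same length. Of all windows, 38.1% held fewer than RAB17 and 43.7% fewer than RAB25, so neither count is unusual among promoters. The other matched genes held between 14 in RAB5B and 24 in RAB11B, with 23 in RAB5A and RAB5C. The RAB17 window held 3 matches to CAGGTG on either strand, and RAB25 and RAB5C held 1 each, as did 1 of the windows of RAB5B. Of all windows, 17.5% held at least 1 match and 0.464% held at least 3. A further E-box, CACGTG, which equals its own reverse complement, occurred once in RAB5A and in RAB21 and in 6.34% of all windows. These letters were chosen after the RAB17 sequence was seen, a match is not a binding site, and gene counts do not show which start a transcript used. RefSeq windows were matched for 9 of the 10 genes, and RAB20 was the gene without one.

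Library totals ranged from 22724439 to 28524025 counts, and 22010 genes passed the filter on low counts. ZNF507 served as a check of the labels, with 47.2 and 48.7 CPM (counts scaled to a library size of 1e+06) in sgZNF507 against 72.0 and 75.5 in EV and 71.3 and 73.3 in sgZNF146. ZNF507 thus had a log2 fold change of −0.62 in sgZNF507 versus EV (SE 0.07, edgeR quasi-likelihood test, Benjamini-Hochberg adjusted p = 0.00195). ZNF146 RNA had 99.2 and 103 CPM in sgZNF146 against 115 and 105 in EV and 88.4 and 101 in sgZNF507. The contrast of sgZNF146 with EV, at −0.13 on the log2 scale (SE 0.08, edgeR adjusted p = 1.00), did not pass the threshold, so the RNA level of ZNF146 does not check that label. Of 8 HEK293 markers, 6 were matched by symbol and all of them had counts in every library. Their summed level was 1269 to 1425 CPM, of which VIM alone supplied 1012 to 1147. VIM and CDH2 are also in the list of mesenchymal genes read below. LHX1 and NEFL were not matched.

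RAB17 (ENSG00000124839) lies on chromosome 2 from 238482965 to 238510257 on the minus strand of GRCh37, and its canonical transcript has 6 exons. In EV the gene had 4 and 2 counts, in sgZNF146 5 and 5, and in sgZNF507 76 and 74. The sgZNF507 libraries stood far above the other 4, with no overlap. Relative to the TMM-scaled library size, RAB17 reached 3.30 and 2.56 CPM in sgZNF507, a mean of 2.93 ± 0.526 (SD, n = 2). EV had 0.161 and 0.0723 CPM, a mean of 0.117 ± 0.0625 (SD, n = 2). In sgZNF146 the level was 0.197 and 0.199 CPM.

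Summed over libraries and scaled to depth, the 150 counts in sgZNF507 were 25.3 times the 6 counts in EV, with a 95% counting interval of 11.3 to 69.9. The interval covers counting error only, and its width comes from the EV side. Against the 10 counts in sgZNF146, the ratio was 14.6 (95% counting interval 7.71 to 31.0). The fitted log2 fold changes were 4.61 against EV and 3.85 against sgZNF146. Without EV replicate 1 the value against EV became 5.24, and without EV replicate 2 it became 4.13. The 2 contrasts share the sgZNF507 libraries and are not independent of each other.

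Among the 22010 genes tested, RAB17 ranked 1 by its log2 fold change in sgZNF507 versus EV, which is how it came to be chosen. The next highest sum in sgZNF507 among the 7729 genes with 1 to 6 counts in EV was 63, in the lncRNA ENSG00000227293. RAB17 passed the low-count filter only through its sgZNF507 libraries. In bulk RNA, a high level in a few cells of a transfected population and a lower level in all of them cannot be told apart.

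**Figure D1:**
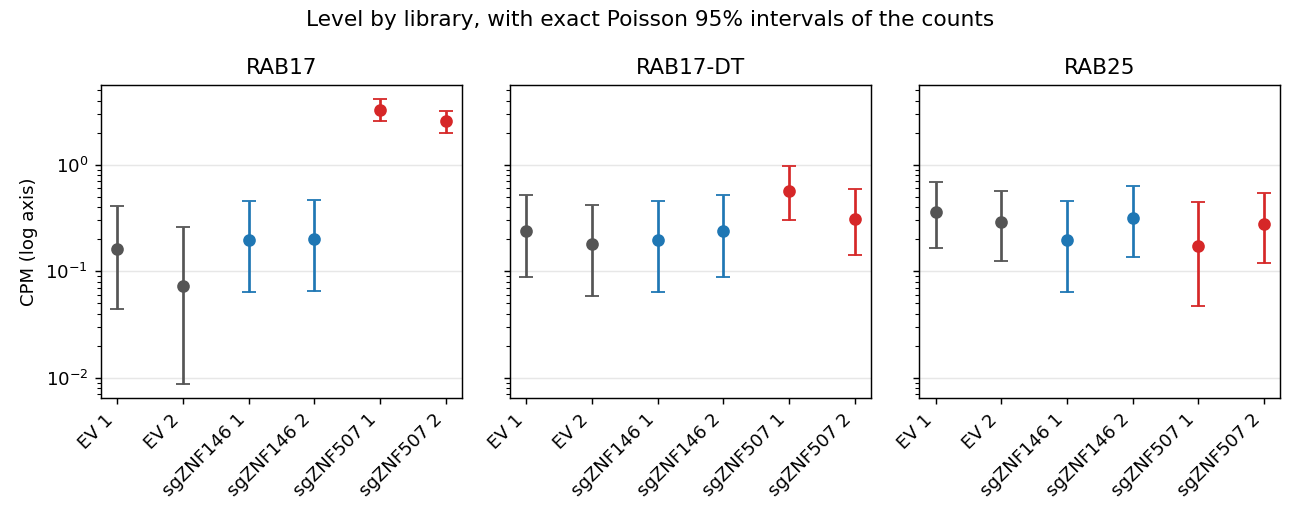
Level of RAB17, its antisense neighbour RAB17-DT and RAB25 in CPM (log axis) in each of the 6 libraries, with exact Poisson 95% intervals of the counts. RAB17 stood at 3.30 and 2.56 CPM in sgZNF507 and at 0.199 CPM or less elsewhere, while the counting intervals of RAB17-DT and RAB25 overlapped between all libraries.

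Between sgZNF146 and EV, RAB17 had 10 counts against 6, a ratio of 1.73 with a 95% counting interval of 0.571 to 5.80. The fitted log2 fold change was 0.77, with 1.39 without EV replicate 1 and 0.29 without EV replicate 2. No p is given here, because RAB17 entered the fit only through its sgZNF507 libraries. A change of RAB17 in sgZNF146 was not detectable at this depth, and a change of several fold lies within the interval.

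The antisense lncRNA RAB17-DT overlaps RAB17, and was too low to be tested. It had 6 and 5 counts in EV, 5 and 6 in sgZNF146 and 13 and 9 in sgZNF507. The sgZNF507 libraries were the highest, at 2.02 times EV with a 95% counting interval of 0.939 to 4.61, which includes no change. The library kit kept strand and the mapping used it, but the strand setting of the counting step is not given in the sources used here. Reads of the 2 genes in their overlap may therefore not be separated.

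Genes around RAB17 were read because they share its chromosomal surroundings. Of 21 annotated genes with any part within 500 kb, 14 had at least 1 count and 9 were tested. None passed the threshold in any of the 3 contrasts under edgeR, DESeq2 or edgeR with the replicate block, and none had an unadjusted edgeR p under 0.05. Over all genes, edgeR called 0.182% in sgZNF507 versus EV, 0% in sgZNF146 versus EV and 0.173% in sgZNF507 versus sgZNF146, so a count of 0 among 9 is at the background. Distances were taken between GENCODE gene starts on GRCh37, and the RefSeq start of the RAB17 window above may differ. By this distance the nearest tested gene was LRRFIP1, which starts 26.0 kb upstream and encodes a nucleic acid binding protein. It had 2090 and 2237 counts in EV, 1972 and 2000 in sgZNF146 and 1815 and 2278 in sgZNF507. The contrast of sgZNF507 with EV stood at −0.07 (SE 0.06) on the log2 scale.
MLPH, which encodes the melanophilin linker between RAB27A and myosin on melanosomes, lies downstream of RAB17. Its counts were 27 and 28 in EV, 39 and 24 in sgZNF146 and 27 and 24 in sgZNF507, for a value of −0.09 (SE 0.34). The collagen gene COL6A3 stood at −0.05, the COP9 signalosome gene COPS8 at −0.03 and its divergent transcript COPS8-DT at −0.13. On the upstream side, the ubiquitin conjugating enzyme gene UBE2F had −0.09, the selenocysteine lyase gene SCLY −0.12, ESPNL 0.13 and RBM44 −0.33. The RBM44 value rests on 10 to 23 counts per library and has an SE of 0.47. PRLH, which encodes a prolactin-releasing peptide and lies between MLPH and RAB17, had 0 counts in every library.

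**Figure D2:**
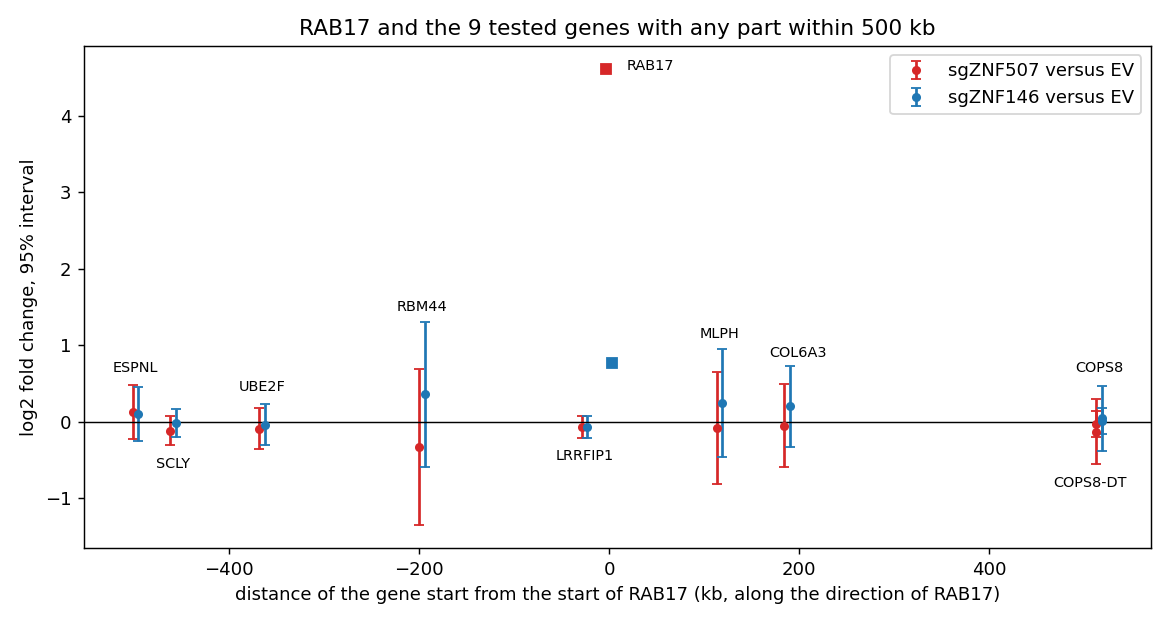
Log2 fold change of RAB17 (squares) and of the 9 tested genes with any part within 500 kb (circles, with 95% intervals). The axis is the distance of each GENCODE gene start from that of RAB17 in kb, positive in the direction of RAB17 transcription. The RAB17 points have no interval because the gene was chosen on, and passed the filter through, the sgZNF507 libraries, and the neighbours lay between −0.33 and 0.13 in sgZNF507 versus EV.

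No RAB5-like or RAB11-like relative passed the test in the contrast where RAB17 was highest. In sgZNF507 versus EV, 0 of the 8 relatives tested passed the adjusted threshold of 0.05, against a background of 0.182% of the 22010 genes, or 40 genes. The count of relatives was also 0 at an unadjusted edgeR p under 0.05, a level that 747 of all genes reached, and with DESeq2 and with the replicate block. RAB25 was too low to be tested. The log2 fold changes of the 8 ran from −0.23 to 0.11 with a median of −0.06, beside −0.003 over all genes, and 3 of them were above 0. For 7 of the 8, the 95% interval lay within a 1.5-fold change in either direction, and RAB20 was the exception.

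The background count moved with the design. With the replicate number as a block it was 121 genes (0.55%), with DESeq2 it was 49, and it fell to 12 without EV replicate 1, 22 without EV replicate 2 and 25 without sgZNF507 replicate 1. None of these fits called a relative of RAB17.

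Among the RAB5 isoforms, RAB5C was the most abundant per length of exon. RAB5A (ENSG00000144566, chromosome 3) had 31.3 and 26.3 CPM in EV, 29.8 and 29.0 in sgZNF146 and 27.0 and 26.3 in sgZNF507. Both sgZNF507 libraries lay at the lower end of the EV range, and the log2 fold change was −0.11 (SE 0.10, 95% interval −0.33 to 0.10). RAB5B (ENSG00000111540, chromosome 12) had 25.7 and 28.0 CPM in EV, 26.6 and 30.4 in sgZNF146 and 28.9 and 29.1 in sgZNF507. Its sgZNF507 libraries lay just above both EV libraries and within the sgZNF146 range, at 0.11 on the log2 scale (SE 0.10, 95% interval −0.10 to 0.32). RAB5C (ENSG00000108774, chromosome 17) had 64.9 and 63.7 CPM in EV, 67.9 and 66.2 in sgZNF146 and 64.0 and 61.2 in sgZNF507. The groups overlapped between EV and sgZNF507, where the change was −0.04 on the log2 scale (SE 0.07, 95% interval −0.19 to 0.11).

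Per kb of exon, RAB5C made up 66.5% of the summed RAB5 level in EV, 66.6% in sgZNF146 and 66.3% in sgZNF507. RAB5A took 21.8%, 21.4% and 20.7% in the same order, and RAB5B the rest. The summed level of the 3 isoforms was 35.1 ± 0.994 CPM per kb in EV, 36.5 ± 0.187 in sgZNF146 and 34.2 ± 0.842 in sgZNF507 (SD, n = 2 each). The library ranges of the RAB5C share overlapped between all groups, whereas those of RAB5B did not overlap between EV (11.0% to 12.5%) and sgZNF507 (12.7% to 13.3%). Those of RAB5A did not overlap between sgZNF146 (21.2% to 21.6%) and sgZNF507 (20.6% to 20.8%). The shares were not tested, and a permutation of 2 against 2 libraries cannot go below 0.333.

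RAB20, which acts in phagosome maturation, was the lowest of the tested relatives. It had 4.18 and 4.34 CPM in EV, 4.26 and 4.37 in sgZNF146 and 3.65 and 3.63 in sgZNF507. Both sgZNF507 libraries were below all 4 others, yet the log2 fold change of −0.23 (SE 0.17, 95% interval −0.59 to 0.13, edgeR adjusted p = 1.00) did not pass the threshold. RAB21, which carries integrins through early endosomes, had 57.4 and 62.4 CPM in EV, 59.2 and 62.6 in sgZNF146 and 50.7 and 60.2 in sgZNF507. The sgZNF507 libraries differed from each other by more than the groups did, and the log2 fold change was −0.11 (SE 0.09). RAB22A, which links early endosomes to recycling, had 29.2 and 32.4 CPM in EV, 27.6 and 30.9 in sgZNF146 and 28.5 and 35.6 in sgZNF507. Its sgZNF507 libraries enclosed both EV values, with a log2 fold change of 0.06 (SE 0.11).

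RAB11A (ENSG00000103769, chromosome 15), the ubiquitous GTPase of recycling endosomes, had 90.3 and 83.5 CPM in EV, 83.7 and 82.8 in sgZNF146 and 80.1 and 84.9 in sgZNF507. The groups overlapped, and the log2 fold change in sgZNF507 versus EV was −0.07 (SE 0.07, 95% interval −0.22 to 0.07). RAB11B (ENSG00000185236, chromosome 19) had 64.8 and 71.2 CPM in EV, 72.5 and 71.2 in sgZNF146 and 66.7 and 72.0 in sgZNF507. Its sgZNF507 libraries lay close to those of EV, at 0.03 on the log2 scale (SE 0.07, 95% interval −0.13 to 0.19). Per kb of exon, RAB11B made up 65.8% of the summed RAB11A and RAB11B level in EV, 68.0% in sgZNF146 and 67.4% in sgZNF507. The library range in sgZNF146 (67.91% to 68.05%) overlapped neither that in EV (63.86% to 67.73%) nor that in sgZNF507 (67.2% to 67.61%), and was not tested.
RAB25 (ENSG00000132698, chromosome 1), the epithelial RAB11 relative, had 9 and 8 counts in EV, 5 and 8 in sgZNF146 and 4 and 8 in sgZNF507. Scaled to depth, these were 0.362 and 0.289 CPM in EV, 0.197 and 0.318 in sgZNF146 and 0.174 and 0.276 in sgZNF507. Both sgZNF507 libraries were below both EV libraries in CPM, by 12 counts to 17, a ratio of 0.713 with a 95% counting interval of 0.311 to 1.58. The interval includes no change, so a difference of RAB25 was not detectable at this depth.

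**Figure D3:**
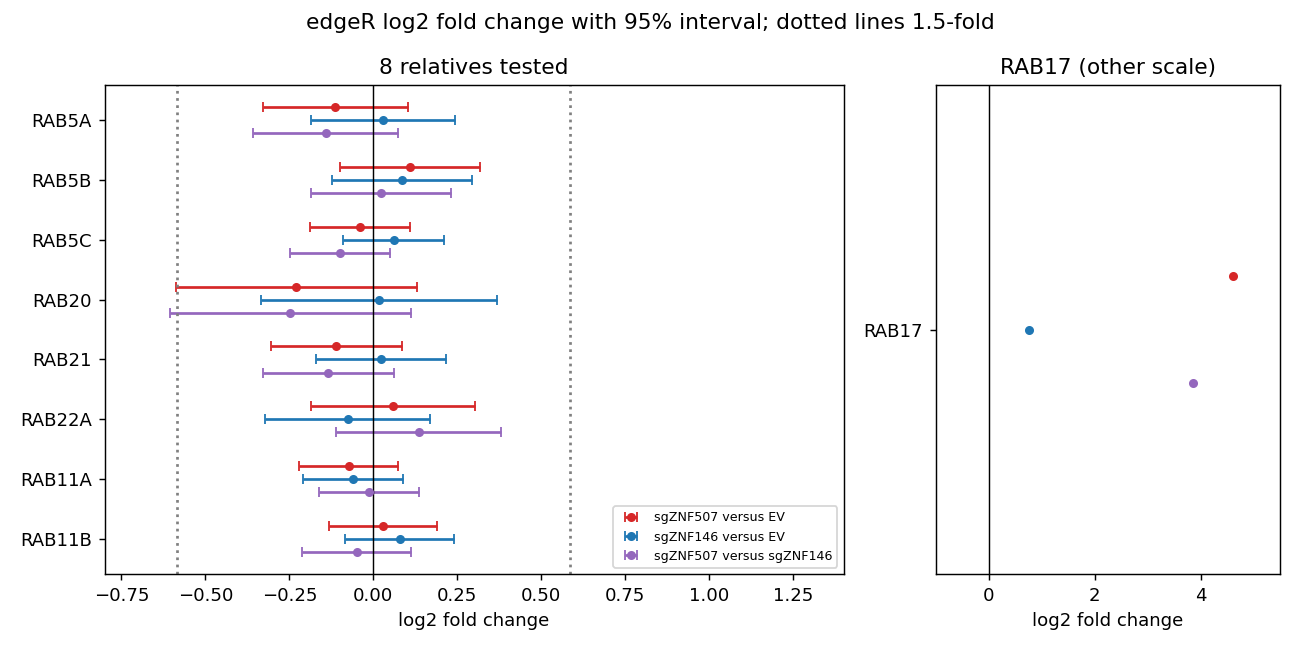
Log2 fold change of the 8 tested relatives with 95% interval (left) and of RAB17 (right, on a wider scale) in the 3 contrasts, with dotted lines at a 1.5-fold change. The relatives lay between −0.25 and 0.13 in all contrasts, and RAB17, at 4.61, 0.77 and 3.85, carries no interval because it was chosen on, and passed the filter through, the sgZNF507 libraries.

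In sgZNF146 versus EV, the relatives ranged in log2 fold change from −0.08 in RAB22A to 0.09 in RAB5B, with a median of 0.03. All 8 intervals lay within a 1.5-fold change, and 0 of the 8 passed the threshold or had an unadjusted p under 0.05. The background in this contrast was 0% under edgeR, with 0 of 22010 genes called, 535 genes at an unadjusted p under 0.05 and 0 called by DESeq2. The replicate block called 33 genes (0.15%), none of them a relative of RAB17. Without EV replicate 1 and without sgZNF146 replicate 2 the count was 1 each, and without either sgZNF507 library it was 3.

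In sgZNF507 versus sgZNF146, the relatives ranged from −0.25 in RAB20 to 0.13 in RAB22A, with a median of −0.07, and 0 of 8 passed the threshold. The background was 0.173%, or 38 genes, with 56 by DESeq2 and 196 (0.891%) with the replicate block. It was 13 without sgZNF146 replicate 1 and 23 without sgZNF146 replicate 2. None of the 8 was called by DESeq2 or the block, and none had an unadjusted p under 0.05 in edgeR without a block. With the block 1 did, RAB21 at −0.14 on the log2 scale (edgeR adjusted p = 0.513). This contrast shares its libraries with the other 2, so the values of a gene in the 3 contrasts are not independent.

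The order of the levels per kb of exon placed RAB17 last in EV. From the top, the EV means were 29.5 CPM per kb for RAB11B, 23.3 for RAB5C, 15.3 for RAB11A and 7.65 for RAB5A. They were followed by RAB5B at 4.12, RAB21 at 3.73, RAB22A at 3.33 and RAB20 at 2.83, then RAB25 at 0.193 and RAB17 at 0.0245. No neighbours in this order overlapped between libraries in EV or in sgZNF146, where the order was the same. In sgZNF507, RAB17 rose to 0.615 ± 0.111 CPM per kb (SD, n = 2), above RAB25 at 0.133 ± 0.0429 and still below RAB20 at 2.41 ± 0.0099. RAB21 and RAB22A overlapped in sgZNF507, at 3.45 and 3.46 CPM per kb. The ranks were the same with the length of the canonical transcript in place of all exons, an alternative added after the data were seen. RAB17 then became 0.0727 CPM per kb in EV and 1.83 in sgZNF507, nearer to RAB20, which stayed at 2.41. How far RAB17 lay below RAB20 in sgZNF507 thus depended on the length used.

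**Figure D4:**
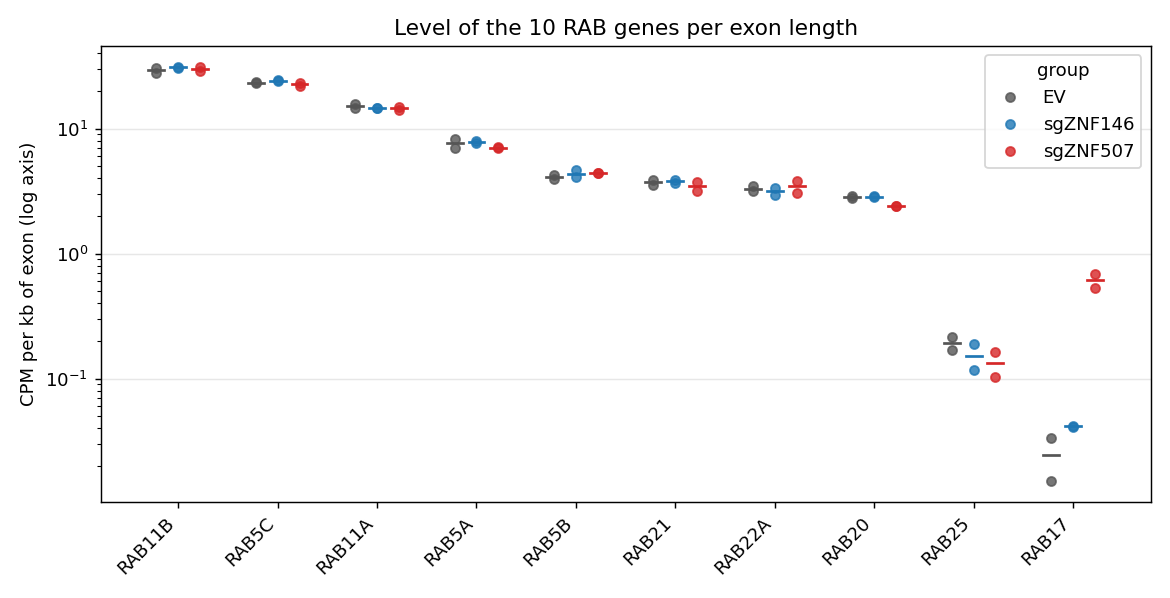
Level of the 10 genes in CPM per kb of exon (log axis), ordered by their mean in EV, with a point for each library and a bar at each group mean. RAB17 moved from 0.0245 in EV to 0.615 in sgZNF507, passing RAB25, and among the others only RAB21 and RAB22A exchanged ranks.

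The remaining RAB genes were read beside the set. Of 54 other RAB genes in the table, 53 had counts and 49 were tested, and 0 passed the threshold in any contrast under edgeR, DESeq2 or edgeR with the replicate block. With 0.182% or fewer of all genes called in each contrast by edgeR without a block, 0 of 49 is at the background. The median over the 49 was 0.02 on the log2 scale in sgZNF507 versus EV and −0.01 in sgZNF146 versus EV. At an unadjusted edgeR p under 0.05 there were 4 in sgZNF507 versus EV, 0 in sgZNF146 versus EV and 1 in sgZNF507 versus sgZNF146, beside 3.39%, 2.43% and 4.03% of all genes. With the replicate block there were 7, 2 and 6 of the 49, beside 7.66%, 5.44% and 8.68% of all genes, and DESeq2 had 0 in each. As a share of the 49, sgZNF507 versus EV lay above all genes in both edgeR fits, and sgZNF146 versus EV lay below. The share in sgZNF507 versus sgZNF146 lay below all genes without the block and above with it. These differences in share were not tested.

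The largest values belonged to RAB6D at −0.83 (SE 0.35), whose counts were 17 and 16 in sgZNF507 against 25 and 35 in EV, and RAB40AL at −0.72 (SE 0.25), whose counts were 44 and 41 in sgZNF507 against 78 and 64 in EV. Both are near-identical copies of other RAB genes, so their counts are uncertain. RAB6C, the copy nearest to RAB6D, stood at 0.30 and RAB40A, the relative of RAB40AL, at 0.24. RAB10, which acts in basolateral sorting and GLUT4 transport, had −0.14 and RAB13, which acts at tight junctions, had −0.17. RAB37, a GTPase of secretory granules, had 10 and 15 counts in EV, 10 and 7 in sgZNF146 and 16 and 22 in sgZNF507. Of the 49 it had the largest difference between the disruptions, at 1.11 on the log2 scale (SE 0.43, edgeR adjusted p = 1.00). RAB6C, RAB10, RAB13, RAB40A and RAB37 were picked for mention after their values were seen.

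**Figure D5:**
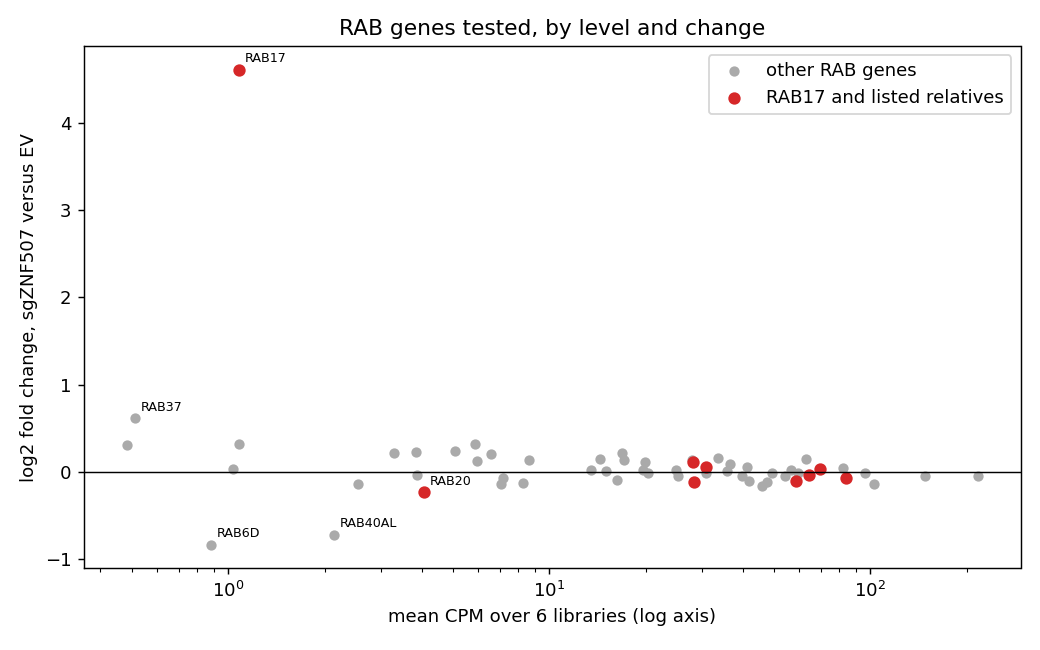
Log2 fold change in sgZNF507 versus EV of all tested RAB genes against their mean CPM over the 6 libraries (log axis), which reflects counting depth and not the order of levels between genes. RAB17 stands at 4.61, and all other RAB genes lie between −0.83 and 0.61.

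Regulators and partners of these GTPases were examined as listed sets. DESeq2 called 0 genes in any list of regulators, cargo or cell markers, beside 0.287% or fewer of all genes. Without a block, at most 2 genes of a list had an unadjusted edgeR p under 0.05 in a contrast. With the block the most was 5, of the epithelial genes in sgZNF146 versus EV. Over all genes, edgeR without a block called 0.182% or fewer, and 2.43% to 4.03% had an unadjusted p under 0.05. Counts of 0 in lists of at most 22 genes are thus at the background. Of 22 regulators and effectors of RAB5, all were tested and none passed the threshold in any contrast, with a median of 0.01 in sgZNF507 versus EV. RIN2, an exchange factor of RAB5, had 25 and 38 counts in EV, 51 and 47 in sgZNF146 and 42 and 41 in sgZNF507. Against EV it stood at 0.42 (SE 0.27) in sgZNF507 and at 0.69 in sgZNF146 on the log2 scale (SE 0.27, edgeR adjusted p = 1.00), where it was the 1 gene of the list with an unadjusted p under 0.05. RABGEF1, which encodes the exchange factor Rabex-5, had −0.22 (SE 0.18). Of 17 regulators and effectors of RAB11, 0 passed, and all 17 intervals lay within a 1.5-fold change in each contrast. ZFYVE27, which encodes the RAB11-binding protein protrudin, had 0.13 (SE 0.08) and RAB11FIP1, an effector shared by RAB11A and RAB25, −0.07 (SE 0.07).

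All 8 genes of prenylation and the membrane cycle of RAB proteins were tested, and 0 passed in any contrast. The RAB escort protein gene CHM had 0.19 (SE 0.12) and its paralog CHML −0.14 (SE 0.09) in sgZNF507 versus EV. Of 8 genes for the transferrin receptor and other recycling cargo, 0 passed under the design without a block. Transferrin itself, TF, had 0.47 (SE 0.35) on 17 to 29 counts. PIGR, the polymeric immunoglobulin receptor whose transcytosis in epithelia involves RAB17, had 39 and 37 counts in EV, 45 and 33 in sgZNF146 and 20 and 38 in sgZNF507. Only the library with 20 counts was below both EV libraries in CPM by a wide margin, and the value was −0.39 (SE 0.30) on the log2 scale.
TFRC, the transferrin receptor gene, had 150 and 125 CPM in EV, 131 and 124 in sgZNF146 and 151 and 142 in sgZNF507. Both sgZNF507 libraries were above both of sgZNF146, by 0.20 on the log2 scale (SE 0.08, edgeR adjusted p = 1.00). With the replicate block TFRC passed the threshold at 0.20 (edgeR adjusted p = 0.0482). Of 7 melanosome transport genes, 0 passed in any contrast. RAB32 had 0.15 (SE 0.13) and RAB27A −0.14 (SE 0.18), both GTPases of melanosome biogenesis or transport.

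Markers of epithelia were read because RAB17 is an epithelial gene. Of 20 epithelial genes, 15 were tested and 0 passed in any contrast, and the median in sgZNF507 versus EV was 0.11 on the log2 scale. Their summed level ran from 198 to 229 CPM in EV, 216 to 224 in sgZNF146 and 218 to 230 in sgZNF507. Those ranges overlapped, but the keratin genes KRT8 and KRT18 supplied 138.5 to 170 CPM of them. The other 18 genes summed to 59.2 to 62.3 CPM in EV, 63.4 to 63.5 in sgZNF146 and 60.3 to 64.7 in sgZNF507, so that sgZNF146 lay above EV and sgZNF507 overlapped both. In sgZNF507 versus EV, 10 of the 15 tested genes were above 0, from the claudin gene CLDN7 at 0.50 (SE 0.53) to the polarity gene CRB3 at −0.40 (SE 0.40). The splicing regulators ESRP1 and ESRP2 stood at 0.34 (SE 0.23) and 0.15 (SE 0.11). In sgZNF146 versus EV they stood at 0.60 (SE 0.23) and 0.28 (SE 0.11). They were the 2 of 15 tested epithelial genes with an unadjusted edgeR p under 0.05 there, beside 2.43% of all genes. With the replicate block there were 5, beside 5.44% of all genes. Of the 15, 10 were above 0 in this contrast, and CRB3 was the lowest at −0.87 (SE 0.42). The part of these genes in the RAB17 result was not tested. KRT19 was at 0 counts in every library. KRT7 had 1 count in all, in sgZNF507. Of 10 mesenchymal genes, 0 passed in any contrast, and their summed level was 1453 to 1599 CPM in EV, 1421 to 1472 in sgZNF146 and 1445 to 1464 in sgZNF507. Of the 6 matched HEK293 markers, 0 passed without a block, and SOX11 passed in sgZNF507 versus sgZNF146 with the block at −0.33 (edgeR adjusted p = 0.0412).
Of 12 markers of other cell types, 11 were matched, 5 were tested and 0 passed. Their summed level was 74.3 to 75.3 CPM in EV, 71.4 to 74.9 in sgZNF146 and 78.3 to 85.7 in sgZNF507, higher in both sgZNF507 libraries, and most of it came from the collagen gene COL1A1. The leukocyte marker PTPRC had 1 to 5 counts per library and the T cell marker CD3E 1 count in all. The part of these cell types in the RAB17 result was not tested.

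The genes whose log2 CPM profile over the 6 libraries was most like that of RAB17 were taken from 2949 genes with a range of at least 1 in log2 CPM. Pearson's r is given as a description, since all 6 points fall into a high pair and a low set. The lncRNA ENSG00000227293 came first (r = 0.970), with 4 and 2 counts in EV, 7 and 8 in sgZNF146 and 28 and 35 in sgZNF507. COMMD9 (r = 0.969), a subunit of the COMMD complex of endosomal recycling, had 35.2 and 35.1 CPM in EV, 31.9 and 33.0 in sgZNF146 and 70.0 and 64.8 in sgZNF507. The melanin-concentrating hormone receptor gene MCHR2 (r = 0.964) had 4 and 4 counts in EV, 7 and 5 in sgZNF146 and 13 and 14 in sgZNF507.
SPNS1 (r = 0.959), which encodes a lysosomal lipid transporter, had 6.11 and 6.19 CPM in EV, 5.67 and 7.11 in sgZNF146 and 11.1 and 11.7 in sgZNF507. The fifth was AC118345.2 (r = 0.957), annotated as a miRNA gene, with 1 and 0 counts in EV, 2 and 0 in sgZNF146 and 10 and 18 in sgZNF507. It starts within a few kb of ENSG00000227293 on the same strand of chromosome 2, at 66466632 against 66462509, and far from RAB17. All 5 had both sgZNF507 libraries above the other 4, which the measure of likeness selects for.

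Several of the genes overlap others on the opposite strand, which limits their counts in the same way as for RAB17-DT. RAB11A overlaps the protein-coding gene DENND4A, with 1061 to 1312 counts per library, and RAB11B overlaps RAB11B-AS1, with 93 to 129. RAB5C overlaps RAB5C-AS1, with 5 to 20 counts, and the processed pseudogene RAB5CP2 had 3 to 13.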

How the data were processed

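RNA of 6 HEK293 libraries, 2 each of EV, sgZNF146 and sgZNF507, was sequenced as stranded paired-end reads of 50 bases. The authors deposited raw counts for each gene, without normalization, made by clipping reads (Fastx Toolkit), removing ribosomal reads (Bowtie), mapping to hg19 (TopHat2, firststrand setting) and counting over Ensembl 82 genes (featureCounts); versions are not given in the sources used here. Library totals of 22724439 to 28524025 set the counting error.

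The test was edgeR 4.0.16 in R 4.3.3: filterByExpr on the 3 groups (22010 of 57773 genes), TMM, glmQLFit on all 6 libraries (common dispersion 0.0052) and glmQLFTest, with Benjamini-Hochberg adjusted p-values over these 22010 genes and a threshold of 0.05. The steps were run on simulated data with the common dispersion for all genes, no replicate effect and changes only in well-counted genes. That run does not cover the pairing or low-count genes such as RAB17. Groups and replicate numbers came from the labels. Same-numbered libraries deviated together from their group means over 22010 genes (r = 0.138 for EV and sgZNF146, 0.176 for EV and sgZNF507 and 0.145 for sgZNF146 and sgZNF507). The main fit had no replicate block, so its SEs, intervals and p-values ignore this pairing. A fit with the number as a block was an alternative, and the blocked value is given where it changed a call. The labels number the libraries as replicates, and the study calls them biological duplicates. The p-values measure the spread between them, which the fit shares over the 3 groups. A permutation test of 2 against 2 libraries cannot go below 0.333 and was not used.

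Gene models came from GENCODE 44 on GRCh37 (96.1% of identifiers matched) and promoter sequences from RefSeq on GRCh38.p14. Levels between genes are CPM per kb of merged exons. Counting intervals are 95% exact Poisson or binomial ones. The genes named were the 2 targets, the 10 RAB genes, in the lists of RAB genes, their regulators, cargo and melanosome transport every gene past the threshold or else the 2 with the largest change in sgZNF507 versus EV, tested genes within 500 kb of RAB17, overlapping genes and the 5 most like RAB17. Cell type marker lists were read by counts and sums, and markers named from them were chosen after their values were seen. RAB17 was fitted in all contrasts but no p is given, because it was chosen on, and passed the filter through, the sgZNF507 libraries. RAB3IP and RAB5IF match the symbol pattern but encode no RAB GTPase and were left out of the family. The members and lists were chosen with earlier results of these data known. Alternatives were DESeq2 size factors, no filter, at least 10 counts in every library, DESeq2 1.42.0, only the 4 libraries compared, the replicate block, leaving out each library and, added later, canonical transcript length.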

Additional observations from a re-analysis of the deposited data

Results flagged for a closer look

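RAB17 differed between the 2 disruptions, with a log2 fold change of 3.85 in sgZNF507 versus sgZNF146, from 76 and 74 counts against 5 and 5. Both sgZNF507 libraries lay above both sgZNF146 libraries. Because RAB17 was chosen on the sgZNF507 libraries, the difference was not tested.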

How the results depend on the processing

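The 8 tested relatives of RAB17 gave 96 log2 fold changes in each contrast under the alternatives. None passed the threshold, with a lowest adjusted p (edgeR or DESeq2) of 0.596 in sgZNF507 versus EV, 0.998 in sgZNF146 versus EV and 0.513 in sgZNF507 versus sgZNF146, and the largest absolute values were 0.25, 0.18 and 0.28. Signs turned only when a library was left out. In sgZNF507 versus EV the ranges then were −0.24 to 0.022 for RAB5A, −0.073 to 0.0055 for RAB5C, −0.23 to 0.0044 for RAB21, −0.10 to 0.20 for RAB22A and −0.033 to 0.094 for RAB11B. In sgZNF146 versus EV they were −0.098 to 0.16 for RAB5A, −0.014 to 0.18 for RAB5B, −0.0099 to 0.041 for RAB20, −0.036 to 0.080 for RAB21 and −0.16 to 0.0023 for RAB22A. In sgZNF507 versus sgZNF146 they were −0.063 to 0.12 for RAB5B, −0.026 to 0.28 for RAB22A, −0.043 to 0.026 for RAB11A and −0.095 to 0.0022 for RAB11B.

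The log2 fold change of RAB17 in sgZNF507 versus EV ran from 4.13 to 5.24 over the fits without 1 library, with 5.24 without EV replicate 1. The filter of 10 counts in every library removed RAB17. Counts of genes called in sgZNF507 versus EV, sgZNF146 versus EV and sgZNF507 versus sgZNF146 were 101, 19 and 112 without a filter and 121, 33 and 196 with the replicate block. Leaving out 1 library gave 12 to 44, 0 to 3 and 13 to 37. With only the 4 libraries compared, sgZNF146 versus EV gave 3. The cause was not tested. Without a filter the higher and lower calls were 42 and 59 in sgZNF507 versus EV, against 25 and 15. Besides TFRC and SOX11, the block changed no call among the RAB genes and listed genes. Depth limits RAB17 in EV and sgZNF146, RAB25 and RAB17-DT, where a library holds 2 to 13 counts.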
